A study of Homo sapiens with 9 samples.

Results

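The metallothioneins are a family of small cysteine-rich proteins, and 10 of their genes (MT1E, MT1F, MT1G, MT1H, MT1HL1, MT1M, MT1X, MT2A, MT3 and MT4) were followed here in HepG2, an established human hepatoma line. They are read by 14 probe sets of an Affymetrix 3′ expression array, out of 41091 probe sets with 1 gene symbol that stand for 19775 genes. All probe sets annotated with one of the 10 symbols were taken, whatever they showed. The family was chosen by its signal changes from vehicle at 6 h and 24 h, since several of its genes had been among the largest rises after GW7647, and both comparisons with vehicle are therefore given as a description of the members, with no test.

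GW7647 is a synthetic agonist of PPARα, a nuclear receptor that fatty acids activate. The 9 arrays fall into 3 groups of 3: HepG2 given 100 nM GW7647 for 24 h, HepG2 given 100 nM GW7647 for 6 h, and HepG2 given the DMSO vehicle, all in medium free of phenol red. No source used here gives the incubation time of the vehicle cells, and agonist exposure and time in culture cannot be told apart. The labels do not say that the arrays of a group came from separate cultures, and p-values therefore measure only the spread between these arrays, which may be technical.

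Metallothioneins bind zinc and copper, and also toxic metals such as cadmium, through clusters of cysteine thiols. In liver cells the MT1 and MT2 genes are known to be switched on by zinc and cadmium through the metal-sensing factor MTF1, which binds metal response elements near their starts, and also by glucocorticoids and inflammatory signals. MT3 is known mainly from brain and MT4 from stratified epithelium.

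By the RefSeq gene order on GRCh38.p14, 9 of the 10 genes lie side by side on chromosome 16 in the order MT4, MT3, MT2A, MT1E, MT1M, MT1F, MT1G, MT1H and MT1X, with 7 other metallothionein genes or pseudogenes among them, and MT1HL1 lies apart on chromosome 1. Of the 14 probe sets, 10 end in _x_at, the mark of probes that can bind several transcripts, 4 end in _at and none ends in _s_at. The _x_at probe sets of this family can therefore read one another's transcripts, and 10 curves that look alike are not 10 separate observations. One of the 2 MT1X probe sets, 204326_x_at, was designed on an accession that RefSeq now assigns to the transcribed pseudogene MT1L. For 5 probe sets the accession is a RefSeq transcript of the named gene, and for the other 8 it is another kind of record or missing.

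The upstream sequences of MT2A, MT1H and MT1X, whose probe sets moved together, and of MT4, whose probe set stayed near its vehicle level, are shown as the places where metal response elements would lie. The promoter table, from RefSeq on GRCh38.p14, matched 4 of the 10 genes, and the 250 bases before each annotated start are printed 5′ to 3′. Capitals mark every match to the core of the metal response element, searched as TGCACNC or TGCGCNC on both strands.
MT2A, chr16:56608334-56608583, + strand: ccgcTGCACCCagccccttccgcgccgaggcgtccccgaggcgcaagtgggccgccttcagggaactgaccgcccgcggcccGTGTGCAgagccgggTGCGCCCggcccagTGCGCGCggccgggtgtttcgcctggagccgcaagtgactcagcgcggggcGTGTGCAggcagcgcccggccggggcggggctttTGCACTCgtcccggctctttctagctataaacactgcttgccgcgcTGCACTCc
MT1H, chr16:56669564-56669813, + strand: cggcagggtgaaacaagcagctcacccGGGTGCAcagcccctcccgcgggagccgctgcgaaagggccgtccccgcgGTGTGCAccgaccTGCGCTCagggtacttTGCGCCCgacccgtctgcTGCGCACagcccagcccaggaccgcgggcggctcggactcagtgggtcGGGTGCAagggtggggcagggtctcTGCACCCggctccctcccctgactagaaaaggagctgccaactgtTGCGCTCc
MT1X, chr16:56682220-56682469, + strand: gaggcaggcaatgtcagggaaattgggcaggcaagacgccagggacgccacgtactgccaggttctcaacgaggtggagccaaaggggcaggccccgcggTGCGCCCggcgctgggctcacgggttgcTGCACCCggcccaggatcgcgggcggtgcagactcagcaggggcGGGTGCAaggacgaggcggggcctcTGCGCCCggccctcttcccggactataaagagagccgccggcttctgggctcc
MT4, chr16:56564823-56565072, + strand: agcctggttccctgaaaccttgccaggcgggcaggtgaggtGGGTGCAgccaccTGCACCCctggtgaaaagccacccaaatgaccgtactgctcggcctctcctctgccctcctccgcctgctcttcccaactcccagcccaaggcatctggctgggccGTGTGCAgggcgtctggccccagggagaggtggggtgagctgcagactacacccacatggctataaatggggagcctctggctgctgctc

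The core occurred 7 times in the MT2A sequence, 8 times in that of MT1H, 4 times in that of MT1X and 3 times in that of MT4, and 0 of these 22 matches overlapped another motif match. Among 35116 promoters of the same length 24.8% held at least 1 core, 1.58% at least 3, 0.37% at least 4 and 0.0313% at least 7. All 4 genes thus held more copies than most promoters, MT4 included. The core of the antioxidant response element, TGACNNNGC, matched once each in MT2A and MT1X and in 10.9% of all promoters. The letters TATAAA, the box that positions transcription starts, matched once each in MT2A, MT1X and MT4 and in 10.7% of all promoters. An exact direct repeat of the PPAR half-site AGGTCA with 1 base between, and an exact glucocorticoid response element (AGAACA, any 3 bases, TGTTCT), matched 0 times in the 4 windows, and in 0.0171% and 0.00285% of all promoters. Exact strings this rare would seldom occur in 4 windows, so 0 matches do not show that such elements are missing. A match is a string of letters and not a measured binding site.

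**Figure D1:**
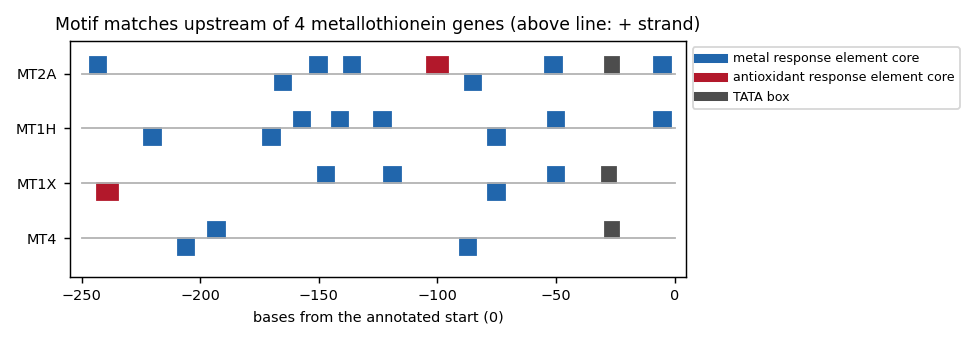
Motif matches in the 250 bases upstream of MT2A, MT1H, MT1X and MT4, plotted by distance in bases from the annotated start, with + strand matches above the line. MT2A has 7 metal response element cores, MT1H 8, MT1X 4 and MT4 3.

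MT2A, the main MT2 gene, had signals of 12.66, 12.60 and 12.60 log2 units at 24 h, 13.25, 13.21 and 13.10 at 6 h, and 11.11, 11.43 and 11.35 in vehicle. The 3 groups did not overlap, with the 6 h arrays highest and the 24 h arrays between them and vehicle. Its level was 2.51-fold (95% confidence interval 2.21 to 2.84) that of vehicle at 24 h and 3.71-fold (3.27 to 4.21) at 6 h.

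The MT1 genes next to it, which encode the MT1 isoforms, ran in the same order. For MT1E, probe set 212859_x_at read 12.47, 12.42 and 12.48 log2 units at 24 h, 13.36, 13.38 and 13.21 at 6 h, and 10.87, 11.14 and 11.12 in vehicle. Its second probe set, 216336_x_at, read 11.34, 11.35 and 11.34 at 24 h, 12.21, 12.07 and 11.95 at 6 h, and 9.78, 10.02 and 10.04 in vehicle. Both put the 24 h arrays above vehicle, at 2.66-fold and 2.64-fold its level, and the 6 h arrays above all others, at 4.82-fold (95% confidence interval 4.27 to 5.46) and 4.39-fold (3.85 to 5.00).

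MT1M, an MT1 isoform gene, is read by 217546_at, which does not carry the shared-probe ending. It had 5.15, 5.15 and 5.27 log2 units at 24 h, 5.92, 5.71 and 5.64 at 6 h, and 4.16, 4.44 and 3.97 in vehicle. Although its mean signal of 5.04 lay below the median of 6.06 over all probe sets tested, its groups did not overlap and stood in the same order as those of the _x_at probe sets. The fold over vehicle was 2.00 (95% confidence interval 1.69 to 2.36) at 24 h and 2.96 (2.50 to 3.50) at 6 h. Folds of probe sets near background can be compressed by RMA, so its smaller size is not set against the others.

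MT1F had the largest 6 h rise of all 41091 probe sets, by probe set 213629_x_at. That probe set read 10.62, 10.55 and 10.52 log2 units at 24 h, 11.19, 11.13 and 10.94 at 6 h, and 8.37, 8.70 and 8.61 in vehicle, which is 2.00 ± 0.09 log2 units (SE) above vehicle at 24 h and 5.74-fold (95% confidence interval 4.99 to 6.60) the vehicle level at 6 h. The other, 217165_x_at, read 11.27, 11.21 and 11.25 at 24 h, 11.98, 11.93 and 11.78 at 6 h, and 9.37, 9.72 and 9.66 in vehicle, with folds of 3.15 at 24 h and 4.96 at 6 h. The groups of both lay apart.

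MT1G, a neighbour of MT1F, was read differently by its 2 probe sets. With 204745_x_at it had 11.61, 11.55 and 11.50 log2 units at 24 h, 12.23, 12.11 and 11.98 at 6 h, and 9.58, 9.69 and 9.79 in vehicle. The 24 h level by this probe set was 3.64-fold (95% confidence interval 3.23 to 4.11) that of vehicle. With 210472_at, which lacks the shared-probe ending, it had 4.39, 4.06 and 4.18 at 24 h, 4.42, 4.42 and 4.40 at 6 h, and 4.31, 4.24 and 4.26 in vehicle. This second reading was low and nearly flat: the log2 change from vehicle was -0.06 ± 0.08 at 24 h and 0.14 ± 0.08 at 6 h (± SE of the fit, n = 3 arrays per group). Which of the 2 reflects MT1G itself was not tested, and the rise read by 204745_x_at cannot be credited to MT1G alone.

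MT1H and MT1X close the row of MT1 genes. MT1H had 11.24, 11.20 and 11.21 log2 units at 24 h, 11.94, 11.85 and 11.79 at 6 h, and 9.56, 9.84 and 9.89 in vehicle. For MT1X, 208581_x_at read 12.07, 12.06 and 12.03 at 24 h, 12.97, 12.90 and 12.78 at 6 h, and 10.50, 10.81 and 10.75 in vehicle. In each case all 6 h arrays exceeded all 24 h arrays, which in turn exceeded all vehicle arrays. The probe set designed on MT1L, 204326_x_at, read 10.64, 10.69 and 10.58 at 24 h, 11.70, 11.60 and 11.42 at 6 h, and 9.21, 9.56 and 9.61 in vehicle. At 24 h the folds over vehicle were 2.74 for MT1H, 2.58 for 208581_x_at and 2.26 for 204326_x_at, and at 6 h they were 4.28, 4.57 and 4.34.

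MT1HL1, an MT1H-like gene outside the cluster, had 12.24, 12.19 and 12.24 log2 units at 24 h, 12.93, 12.87 and 12.75 at 6 h, and 10.71, 10.93 and 10.95 in vehicle. Its groups lay apart in the same order, at 2.56-fold (95% confidence interval 2.28 to 2.88) the vehicle level at 24 h and 3.96-fold (3.53 to 4.46) at 6 h. Its reading by an _x_at probe set cannot be told apart from that of the cluster genes.

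MT3 and MT4 did not share this course. MT3 had 5.87, 5.65 and 5.70 log2 units at 24 h, 5.63, 5.70 and 5.68 at 6 h, and 5.70, 5.89 and 5.43 in vehicle, and all groups overlapped. MT4 had 5.85, 5.76 and 5.81 at 24 h, 5.91, 5.92 and 5.85 at 6 h, and 5.78, 5.72 and 5.87 in vehicle, and the groups overlapped in every comparison. Both signals lay below the median of all probe sets tested. The 95% confidence interval of the 6 h change ran from -0.23 to 0.23 log2 units for MT3 and from -0.03 to 0.24 for MT4.

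**Figure D2:**
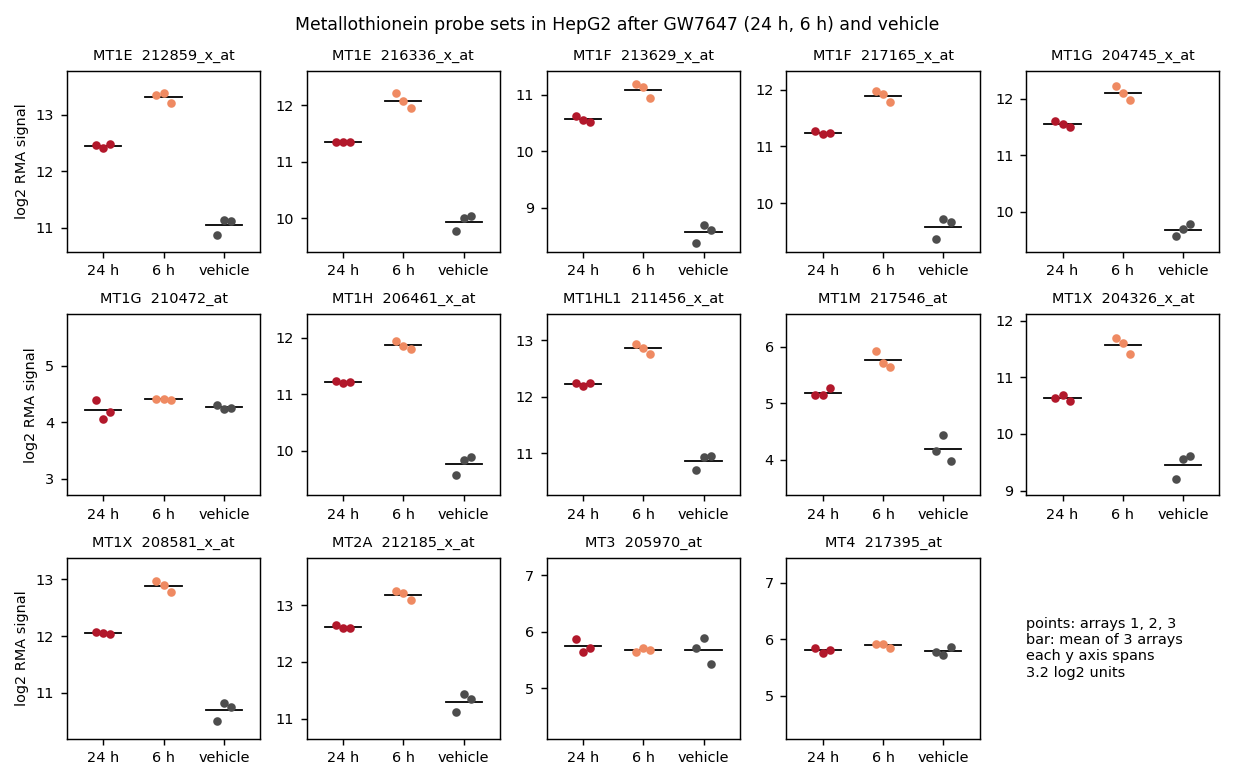
Log2 RMA signal of the 14 metallothionein probe sets in each array, with GW7647 24 h, GW7647 6 h and vehicle from left to right; points are arrays and bars are means of 3 arrays. In 11 probe sets the 3 groups do not overlap and 6 h is highest, as for MT2A at 13.10 to 13.25 log2 units, while MT3, MT4 and 210472_at of MT1G stay near their vehicle level.

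Over all 14 probe sets the median log2 change from vehicle was 1.36 at 24 h and 2.11 at 6 h, where the medians of all 41091 probe sets were -0.00098 and 0.0045. At 6 h 11 of the 14 were called higher and 0 lower by limma at a Benjamini-Hochberg adjusted p under 0.05 over all probe sets, where 0.905% of all probe sets were called higher and 1.13% lower. At 24 h 11 of the 14 were called higher and 0 lower, where 3.37% of all probe sets were called higher and 2.30% lower. All 3 arrays at 6 h lay above all 3 vehicle arrays in 12 of the 14 and below them in 0, beside 9.20% and 9.47% of all probe sets. At 24 h all 3 lay above vehicle in 11 and below in 0, beside 11.4% and 8.91%. These counts describe the comparisons by which the family was picked and carry no weight of their own; both share the vehicle arrays. Array signals are averages over the culture, so more transcript in every cell and a larger share of cells with a high level cannot be told apart.

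The 24 h arrays were set against the 6 h arrays to ask how far the metallothionein levels held. The family was not picked on this contrast itself, but the arrays of both times served in the comparisons that picked it. Choosing probe sets for a high 6 h reading favours a lower reading at 24 h, so the limma p-values below describe the fit and are not independent evidence of a fall. In all, 11 of the 14 probe sets fell and 0 rose at 24 h relative to 6 h, covering 8 of the 10 genes, beside 3.51% of all probe sets called lower and 6.20% called higher. Their log2 changes ran from -0.94 to -0.52 with a median of -0.64, a 1.43-fold to 1.92-fold lower signal at 24 h. Over all 14 members the median was -0.60, and over all probe sets tested it was -0.012.

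The MT1X and MT1E readings had the largest falls. The log2 change at 24 h against 6 h was -0.94 ± 0.11 for 204326_x_at (SE, limma adjusted p = 3.54e-04) and -0.83 ± 0.08 for 208581_x_at (limma adjusted p = 1.76e-04), both annotated MT1X. The MT1E probe sets fell by 0.86 ± 0.08 (limma adjusted p = 1.08e-04) and 0.73 ± 0.09 log2 units (limma adjusted p = 4.32e-04). The _x_at readings of MT1F and MT1G, which stood highest among the members over vehicle at 6 h, had smaller falls. For MT1F, 213629_x_at changed by -0.52 ± 0.09 (limma adjusted p = 0.00455) and 217165_x_at by -0.65 ± 0.09 (limma adjusted p = 0.00116). For MT1G, 204745_x_at changed by -0.55 ± 0.08 (limma adjusted p = 0.00131). Whether the falls of the MT1X and MT1G readings differ was not tested. Their 95% confidence intervals, -1.17 to -0.70 for 204326_x_at and -0.73 to -0.38 for 204745_x_at, share a narrow stretch. All these probe sets end in _x_at and can read one another's transcripts, so their falls cannot be credited to single genes.

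MT2A fell by 0.57 ± 0.08 log2 units between the times (limma adjusted p = 0.00154), MT1H by 0.64 ± 0.08 (limma adjusted p = 7.85e-04) and MT1HL1 by 0.63 ± 0.08 (limma adjusted p = 5.67e-04). MT1M, read by a probe set without the shared-probe ending, fell by 0.57 ± 0.11 (limma adjusted p = 0.00768). It is the one member whose rise over vehicle and later fall were both read by a probe set without that ending. Whether 217546_at also binds other family transcripts was not tested, and its mean signal of 5.04 lay below the median of 6.06. The other members did not pass: the log2 change was -0.20 ± 0.08 for 210472_at of MT1G (limma adjusted p = 0.154), 0.07 ± 0.11 for MT3 (limma adjusted p = 0.771) and -0.09 ± 0.06 for MT4 (limma adjusted p = 0.472). The fall of 210472_at passed without 24 h replicate 1, at -0.29 (limma adjusted p = 0.0276). All 3 arrays at 24 h lay below all 3 arrays at 6 h in 12 of the 14 probe sets and above them in 0, beside 13.1% and 16.2% of all probe sets.

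**Figure D3:**
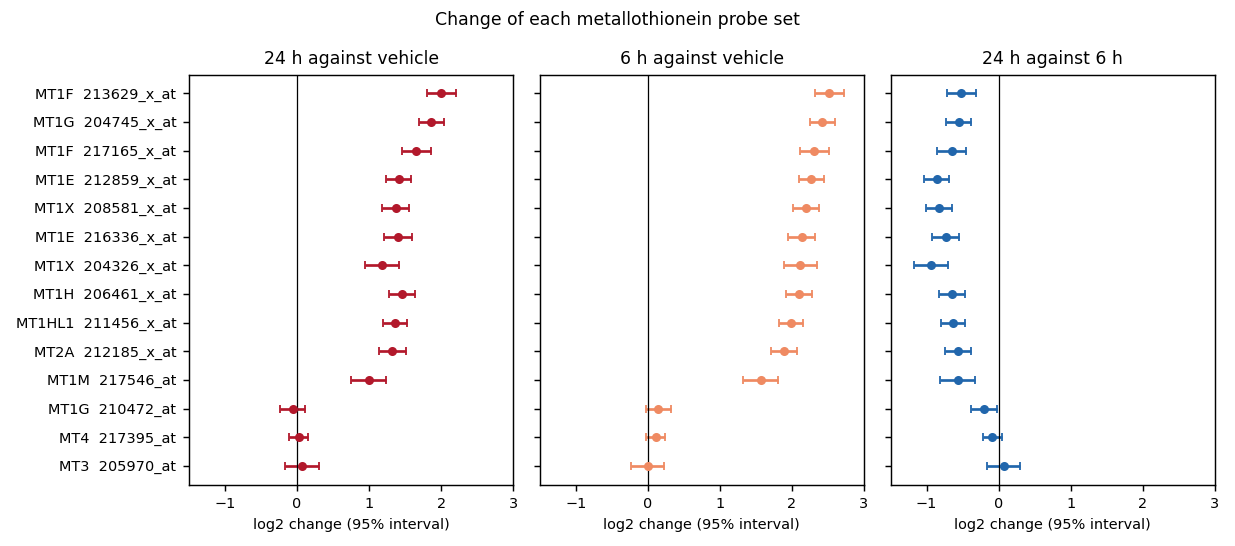
Log2 change of each metallothionein probe set with its 95% confidence interval in 3 panels (24 h and 6 h each over vehicle, then 24 h over 6 h), ordered by the 6 h change. MT1F leads at 6 h with 2.52, the 11 probe sets that moved lie between -0.94 and -0.52 for 24 h against 6 h, and MT3 and MT4 stay near 0.

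The 11 moving probe sets also shifted together between arrays of 1 group. The array of 6 h replicate 3 was the lowest of its group in 11 of 11, against 29.6% of all probe sets, and that of vehicle replicate 1 in 10 of 11, against 38.1%. All but MT1M end in _x_at and can read one another's transcripts, so these counts are not 11 separate observations. MT1M, read by a probe set without the shared-probe ending, was lowest in 6 h replicate 3 and, in vehicle, in replicate 3 rather than 1. The median of these probe sets lay 0.19 log2 units below its group mean in vehicle replicate 1 (median deviation -0.19), where that of all probe sets was -0.0077. The 24 h arrays were the tightest, with a median SD of 0.032 log2 units over these probe sets, against 0.105 at 6 h and 0.168 in vehicle.

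The arrays were also checked for RNA quality and cell type. The 3′ minus 5′ signal of GAPDH, a sign of RNA integrity, was 0.018 to 0.022 log2 units at 24 h, 0.045 to 0.070 at 6 h and -0.0082 to 0.076 in vehicle. That of actin was larger and ranged more widely, at 0.25 to 0.40 at 24 h, 0.27 to 0.30 at 6 h and 0.15 to 0.36 in vehicle. Of the 8 hepatocyte markers looked for, 7 were measured, all above the median signal, and their mean signal was 13.13 to 13.15 log2 units at 24 h, 13.27 to 13.28 at 6 h and 13.30 to 13.35 in vehicle. Of 10 markers of immune, endothelial, stromal and biliary cells 9 were measured, 4 of them above the median signal, and their mean signal was 6.28 to 6.38 at 24 h, 6.31 to 6.34 at 6 h and 6.35 to 6.39 in vehicle. Among the hepatocyte genes TTR and FGB fell at 24 h, with log2 changes of -0.55 and -0.67 against vehicle and of -0.46 and -0.54 against 6 h. Among the markers of other cells CD14, of monocytes and macrophages, fell at 6 h against vehicle (-0.29 ± 0.06, limma adjusted p = 0.0298) and was higher at 24 h than at 6 h (0.28 ± 0.06, limma adjusted p = 0.0123). The part of these shifts in the metallothionein result was not tested.

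The genes most like the family were sought by the Pearson correlation over the 9 arrays with the mean centred signal of 7 members above the median signal (MT1E, MT1F, MT1G, MT1H, MT1HL1, MT1X and MT2A), among 62 genes outside the family whose group means spanned at least 1 log2 unit. The 5 highest were TCIM (r = 0.97), a small regulator of transcription, INHBE (r = 0.94), an activin subunit, CYP24A1 (r = 0.93), which degrades vitamin D, SKIL (r = 0.89), a repressor of SMAD signalling, and SLC2A3 (r = 0.87), a glucose transporter. The correlations describe these arrays, which share their 3 groups, and carry no test. TCIM had 7.16 ± 0.16 log2 units at 24 h, 7.70 ± 0.21 at 6 h and 6.35 ± 0.10 in vehicle (SD, n = 3 arrays), and CYP24A1 had 7.84 ± 0.03, 8.55 ± 0.18 and 7.36 ± 0.07. These 2 followed the order of the metallothioneins, as did the means of SKIL at 8.46 ± 0.12, 9.26 ± 0.08 and 8.03 ± 0.26. SKIL was not called at 24 h against vehicle (limma adjusted p = 0.0535). INHBE stood as high at 24 h (9.04 ± 0.10) as at 6 h (9.02 ± 0.09) over vehicle (7.17 ± 0.09). The mean of SLC2A3 was 11.49 ± 0.04 at 24 h and 11.30 ± 0.07 at 6 h, a difference that was not called (limma adjusted p = 0.0717). Neither gene fell between the times, so both ranked high through the vehicle arrays.

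**Figure D4:**
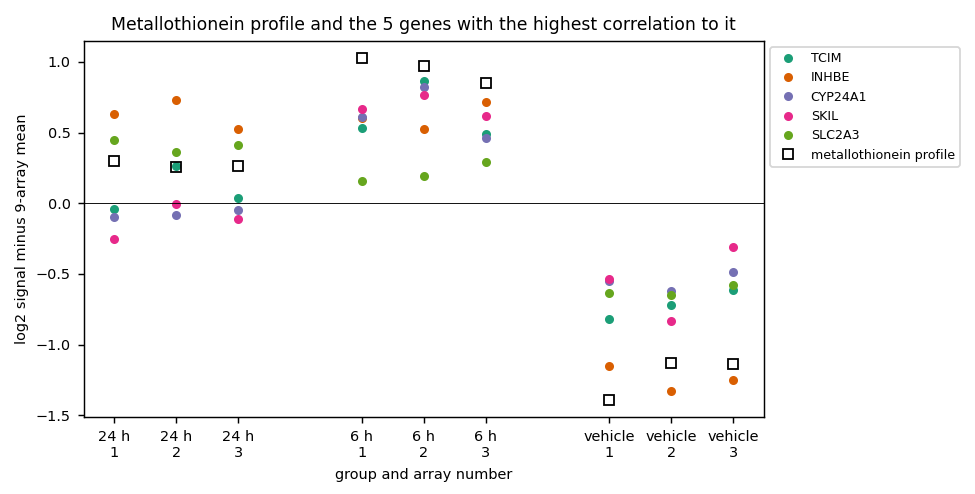
Log2 signal minus its 9-array mean for the metallothionein profile (squares, mean of 7 members) and for TCIM, INHBE, CYP24A1, SKIL and SLC2A3 (points) in each array of GW7647 24 h, GW7647 6 h and vehicle. The profile lies at 0.25 to 0.30 at 24 h, 0.85 to 1.03 at 6 h and -1.39 to -1.13 in vehicle.

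In a list of 25 genes, zinc transporters and the metal sensor MTF1, all measured, SLC30A1 rose at 6 h and fell between 6 h and 24 h, but unlike the 11 metallothionein probe sets it was not called at 24 h against vehicle (log2 change -0.10 ± 0.07, limma adjusted p = 0.47). SLC30A1, which exports zinc from the cell and is another known MTF1 target, was 0.43 ± 0.07 log2 units higher at 6 h than in vehicle (limma adjusted p = 0.00805) and 0.53 ± 0.07 lower at 24 h than at 6 h (log2 change -0.53, limma adjusted p = 6.57e-04). Of the 25 genes 1 rose and 3 fell at 6 h against vehicle, among them the zinc importers SLC39A10 (-0.59 ± 0.08) and SLC39A1 (-0.42 ± 0.08). At 24 h against vehicle 3 rose and 2 fell, led by SLC30A10 (0.76 ± 0.13), SLC39A10 (-0.52 ± 0.08) and SLC30A5 (0.36 ± 0.07), the last of which loads zinc into the secretory pathway. At 24 h against 6 h 7 rose, SLC39A7 (0.48 ± 0.08) and SLC30A10 (0.48 ± 0.13) among them, and 2 fell. The shares of all probe sets called in either direction were 2.03%, 5.66% and 9.71% in these comparisons. Each listed gene stands by its probe set of highest mean, and 20 of the 25 lay above the median signal. Shares over all probe sets are therefore not a like-for-like background for this list or for those below. MTF1, the second that fell and chosen for mention after its values were seen, changed by -0.20 ± 0.06 between 24 h and 6 h (limma adjusted p = 0.0475), and it passed in only 1 of the 9 fits that left out an array (limma adjusted p up to 0.152). SLC39A1 did not pass without any 1 of the 6 h arrays (limma adjusted p up to 0.136), and SLC30A10 at 24 h against 6 h passed only without 6 h replicate 3 or 24 h replicate 3 (up to 0.174). The 5 calls at 24 h against vehicle became 3 without vehicle replicate 3, any 1 of the 6 h arrays, or 24 h replicate 1 or 3, and the 9 at 24 h against 6 h numbered 4 once 6 h replicate 2 was dropped and 5 once 24 h replicate 2 was.

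Of 16 copper handling genes measured, 0 were called at 6 h against vehicle, and 1 rose and 1 fell at 24 h in both comparisons. They were the copper importer SLC31A1 (0.41 ± 0.07 against vehicle and 0.53 ± 0.07 against 6 h) and the plasma copper carrier ceruloplasmin, CP (-0.67 ± 0.08 and -0.55 ± 0.08). Of all probe sets, 2.03% were called in either direction at 6 h against vehicle and 5.66% at 24 h against vehicle. At 24 h against 6 h the share was 9.71%, and the 2 copper calls of 16 lie near it. The same shares stand beside the counts of stress genes that follow. Of 15 measured metal and oxidant stress genes outside the family 2 rose and 0 fell at 6 h, the cystine importer SLC7A11 (1.29 ± 0.09, limma adjusted p = 3.50e-05) and heme oxygenase HMOX1 (0.40 ± 0.09, limma adjusted p = 0.0379). HMOX1 passed at 6 h only in the fit without vehicle replicate 2 among the 9 that left out an array (limma adjusted p up to 0.148), so the 2 rises became 1 in the other 8. Against vehicle at 24 h 2 of the 15 rose, SLC7A11 (1.82 ± 0.09) and HMOX1 (0.41 ± 0.09), and 4 fell, with the heat shock protein HSPH1 at -0.42 ± 0.08. The call of HMOX1 at 24 h ended when vehicle replicate 1 or 3, or 24 h replicate 1 or 2, was left out (limma adjusted p up to 0.0704). Relative to 6 h, SLC7A11 rose further at 24 h (0.53 ± 0.09) while 6 of the 15 fell, among them the chaperone DNAJB1 (-0.51 ± 0.06) and sulfiredoxin SRXN1 (-0.50 ± 0.06).

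Glucocorticoids are a known inducer of MT2A, and 18 genes of the glucocorticoid response were measured. At 6 h against vehicle 4 rose and 1 fell, with the growth brake DDIT4 (1.29 ± 0.09), the kinase SGK1 (0.76 ± 0.06) and the receptor kinase inhibitor ERRFI1 (0.65 ± 0.06) the largest. The 1 that fell was KLF9 (-0.57 ± 0.09). The other 13 were not called at 6 h, among them FKBP5, TSC22D3, DUSP1 and TAT, which were not called at 24 h against vehicle either. At 24 h against vehicle 4 rose and 0 fell, led by DDIT4 (1.73 ± 0.09), ERRFI1 (0.90 ± 0.06) and the transcription factor CEBPD (0.40 ± 0.08). At 24 h against 6 h 6 rose and 4 fell. CEBPD (0.63 ± 0.08) and the transcription factor KLF9 (0.52 ± 0.09) rose and SGK1 fell (-0.66 ± 0.06). FKBP5 also fell between the times (-0.21 ± 0.05, limma adjusted p = 0.0306), while TSC22D3, DUSP1 and TAT were not called. Over these 18 genes, which went both ways, the log2 changes had a median of 0.11 at 24 h and 0.031 at 6 h against vehicle, and the medians of all probe sets were -0.00098 and 0.0045. Beside these counts stand shares of all probe sets called in either direction of 2.03% at 6 h and 5.66% at 24 h against vehicle. The share at 24 h against 6 h was 9.71%. The part of glucocorticoid signalling in the metallothionein levels was not tested.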

How the data were processed

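The authors deposited log2 probe set signals of 9 arrays, and per the submitters' processing notes the values were made with RMA, with no version; no source used here names the software or the chip definition. The values ran from 2.66 to 15.0 with 0 missing and array medians of 5.61 to 5.68, and were used as they stood.

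Of 54675 probe sets, 62 controls, 1801 with several symbols and those without a symbol in the platform annotation were left out, and 41091 were tested. Each was fitted on its own with group means over all 9 arrays in limma 3.58.1 (R 4.3.3; 6 residual degrees of freedom), two-sided, adjusted by Benjamini-Hochberg and called at an adjusted p under 0.05. With 3 arrays against 3 an exact permutation test cannot go below p = 0.10. The number of arrays limits precision. The fit was tested on simulated data.

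Genes of other lists were represented by their probe set with the highest mean. The members and lists were chosen with earlier results of these data known. All member probe sets were named, with up to 3 called genes of each other list per comparison, those of largest change, and the 5 genes most like the family. MTF1, KLF9 at 6 h and the glucocorticoid genes not called against vehicle were named in addition, after their values were seen. The alternatives were the replicate block, only the compared groups, an intensity trend with a robust prior, probe sets above the median signal, 1 probe set or the mean per gene, no shared probes, quantile normalization, median centring, array weights, stricter thresholds, all non-control probe sets and each array left out.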

Additional observations from a re-analysis of the deposited data

Results flagged for a closer look

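The change from vehicle differed between 24 h and 6 h for 11 metallothionein probe sets, by limma's test of 24 h against 6 h, whose arrays also served in choosing the family. The log2 difference was -0.86 and -0.73 for the MT1E probe sets, -0.52 and -0.65 for those of MT1F, -0.94 and -0.83 for those of MT1X, -0.55 for 204745_x_at of MT1G, -0.64 for MT1H, -0.63 for MT1HL1, -0.57 for MT1M and -0.57 for MT2A.

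The same test picked out named genes of the other lists. The log2 difference was -0.53 for SLC30A1, -0.20 for MTF1, -0.55 for CP, -0.66 for SGK1, -0.51 for DNAJB1 and -0.50 for SRXN1. It was 0.53 for SLC31A1, 0.63 for CEBPD, 0.52 for KLF9, 0.53 for SLC7A11, 0.48 for SLC30A10 and 0.48 for SLC39A7. Groups of 3 arrays are too small for the check for single outlying arrays.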

How the results depend on the processing

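The 11 metallothionein calls in each comparison kept their direction under every alternative that still held their probe sets, which is no independent support, since these arrays served in choosing the family. Leaving out 1 array gave 11 to 11 calls at 6 h and at 24 h against vehicle and 11 to 12 at 24 h against 6 h. Without probe sets ending in _x_at or _s_at only 4 of the 14 could be tested and 1, MT1M, was called in each comparison, by construction. With at least a 1.5-fold change asked for, 7 of the 11 falls at 24 h against 6 h were left, without 213629_x_at of MT1F, 204745_x_at of MT1G, MT1M and MT2A. The labels do not say that replicate numbers pair the arrays. Over 9 same-numbered pairs the deviations from the group means correlated at -0.17 to 0.085, and 0 pairs exceeded 0.1. No strong shared effect was seen, but 3 arrays per group cannot exclude pairing or a weak one. The replicate number as a block gave 11 metallothionein calls in each comparison, and 1 in place of 2 calls of metal and oxidant stress genes at 6 h. It also ended the calls of HMOX1 and SLC39A1 at 6 h (limma adjusted p = 0.0521 and 0.0547) and of SLC30A10 and MTF1 at 24 h against 6 h (0.0731 and 0.0876). With 1 array left out, the calls ran from 1 to 2 for metal and oxidant stress genes at 6 h, from 3 to 6 for zinc genes at 24 h against vehicle and from 4 to 11 at 24 h against 6 h. A profile from all member probe sets above the median signal gave the same 5 genes most like the family, 5 of 5. Scaling moved the median of all probe sets by little, to 0.00021 at 6 h after quantile normalization and -0.011 after median centring. MT1M, MT3, MT4 and 210472_at of MT1G had signals below the median of all probe sets, which limits what their folds can show.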
